A study of Arabidopsis thaliana with 12 samples.

Results

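CUTA (AT2G33740) was the only gene annotated to its feature, 1 of 692 single-gene features among the 3439 features of the array, and no other feature carried it among several genes. RNA came from Arabidopsis thaliana, ecotype Wassilevskija. The kn09 mutant, which the labels call proline-hypersensitive and blocked in the breakdown of proline in the mitochondrion, gave 6 samples, with roots kept 48 h on MS medium holding 100 mM proline. Wild type plants gave the other 6, with roots kept 48 h on MS medium holding 100 mM glucose. The mutated gene is not named in the labels, and genotype and compound changed together, so mutation, proline and glucose cannot be told apart. Whether the replicates were separate plants is not in the labels, so the p-values given for other genes cover only the scatter of these samples, which may be technical.

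CutA proteins form a widely conserved family of small proteins that assemble as trimers, named for a bacterial locus linked to tolerance of divalent metal ions. The Arabidopsis protein carries a plastid targeting sequence and binds copper, and its function in the plastid is not settled. Plastids need copper for plastocyanin, which carries electrons between the photosynthetic complexes, and for the stromal copper/zinc superoxide dismutase; envelope and thylakoid copper pumps deliver the metal. RNA levels cannot show the plastid location or the copper binding of the protein, and neither was measured here. In the TAIR10.1 gene table, CUTA lies on chromosome 2 between AT2G33735 and PUP2, and the annotated spans of both neighbours overlap that of CUTA. Neither neighbour has a single-gene feature on the array, and the stretch of CUTA that the feature carries is not given in the sources used here.

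CUTA signal was lower in every kn09 sample on proline than in every wild type sample on glucose. The gene was chosen by its log2 difference between these same 12 samples, already known to be among the most negative, so its levels are described without a test. In kn09 samples 1 to 6 the deposited intensity, in the authors' units, was 1.76, 1.96, 2.29, 2.54, 1.79 and 1.97. In wild type samples 1 to 6 it was 6.60, 6.51, 14.5, 13.9, 10.5 and 11.0. The groups did not overlap: the lowest wild type sample was 2.56 times the highest kn09 sample. Over the whole array, 8.69% of the features had intensities in kn09 that all lay below those of wild type. These are levels of bulk RNA, in which fewer cells of a type and less RNA per cell cannot be told apart.

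The mean intensity of CUTA was 2.05 ± 0.305 in kn09 and 10.5 ± 3.44 in wild type (SD, n = 6 each), so the wild type mean was 5.12 times the kn09 mean. After quantile normalization of the log2 values, CUTA lay between 0.73 and 1.35 in kn09, with an SD of 0.22, and between 2.84 and 3.98 in wild type, with an SD of 0.48 (n = 6 each). The normalized log2 difference, kn09 minus wild type, was -2.38 ± 0.24 (SE), while the median difference over all 3439 features was -0.03.

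**Figure D1:**
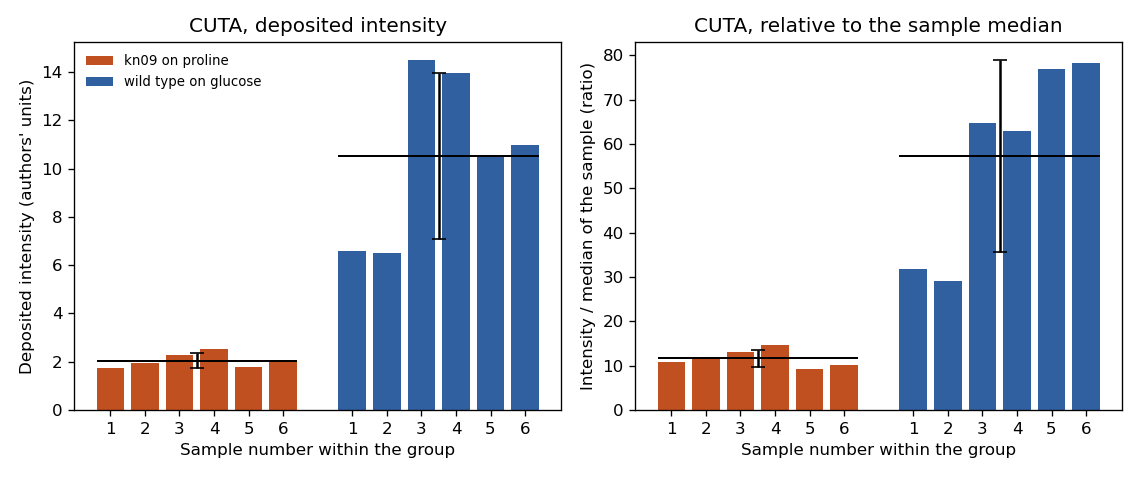
CUTA in each of the 12 samples, with kn09 on proline left of wild type on glucose; bars are samples, horizontal lines are group means and whiskers are 1 SD (n = 6 each). The left panel shows deposited intensity in the authors' units, between 1.76 and 2.54 in kn09 and between 6.51 and 14.5 in wild type; the right panel shows the ratio of that intensity to the median of the sample.

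Wild type samples were less uniform than kn09 samples for this gene. The highest kn09 sample was 1.45 times the lowest, and the highest wild type sample was 2.23 times the lowest. Most of the wild type spread lay between pairs of neighbouring sample numbers rather than within such pairs. Wild type samples 1 and 2 averaged 6.55, samples 3 and 4 averaged 14.2 and samples 5 and 6 averaged 10.8, while the 2 samples of each such pair differed by 0.02 to 0.06 on the log2 scale. In kn09 the same pairs averaged 1.86, 2.42 and 1.88, with differences within a pair of 0.14 to 0.16 on the log2 scale. Samples 3 and 4 thus had the highest CUTA intensity of their group in both groups. The labels give no reason for such pairs. They were seen over all features in wild type, and in kn09 clearly only for samples 5 and 6. The rank correlation within a wild type pair was 0.896 to 0.944, against 0.798 to 0.838 with the other wild type samples. Within a kn09 pair it was 0.849, 0.838 and 0.918 for samples 1 and 2, 3 and 4, and 5 and 6. With the rest of their group it was 0.841, 0.839 and 0.861.

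Features with no value at 0 in any sample, 2196 in all, allow the spread of CUTA to be placed. The SD of its normalized log2 values was 0.22 in kn09, smaller than that of most such features, whose median SD was 0.40. In wild type the SD of CUTA was 0.48, near the median of 0.53.

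The order of the wild type samples depended on the scale of each sample. The median intensity was 0.164 to 0.196 in kn09 samples and 0.137 to 0.224 in wild type samples, lowest in wild type samples 5 and 6. Divided by the median of its sample, CUTA was 10.7, 11.9, 13.2, 14.6, 9.28 and 10.1 in kn09 samples 1 to 6. The same ratio was 31.7, 29.2, 64.6, 63.0, 76.8 and 78.2 in wild type samples 1 to 6. On this scale wild type samples 5 and 6 took the place of samples 3 and 4 as the highest, samples 1 and 2 stayed the lowest, and the groups again did not overlap.

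Wild type samples 1 and 2 were the nearest to kn09 for CUTA on both scales. Without them the wild type mean was 12.5 ± 2.02 (SD, n = 4), or 6.09 times the kn09 mean, and the normalized log2 difference was -2.62 ± 0.22 (SE). Since they held the lowest wild type values, leaving them out had to raise the wild type mean.

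The CUTA spot was bright in both groups, far from the floor at 0 and from the ceiling of the scale just under 100. It outshone 91.0% to 93.7% of the features in the kn09 samples and 97.7% to 99.1% in the wild type samples. Brightness on such an array ranks spots and not the abundance of different transcripts. No CUTA value had to be replaced, although 317 to 475 features stood at 0 in a kn09 sample and 175 to 265 in a wild type sample.

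Ordered from the most negative difference, CUTA was number 108 of all 3439 features. Many features ahead of it had values at 0, whose log2 differences rest on the number put in place of a zero. Its place among all features was 219 without normalization or with median centring, 81 with zeros as missing and 27 with a pseudocount. Among the 2196 features with no zero it was number 37 after quantile normalization, and among the 416 single-gene features with no zero it was number 7.

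**Figure D2:**
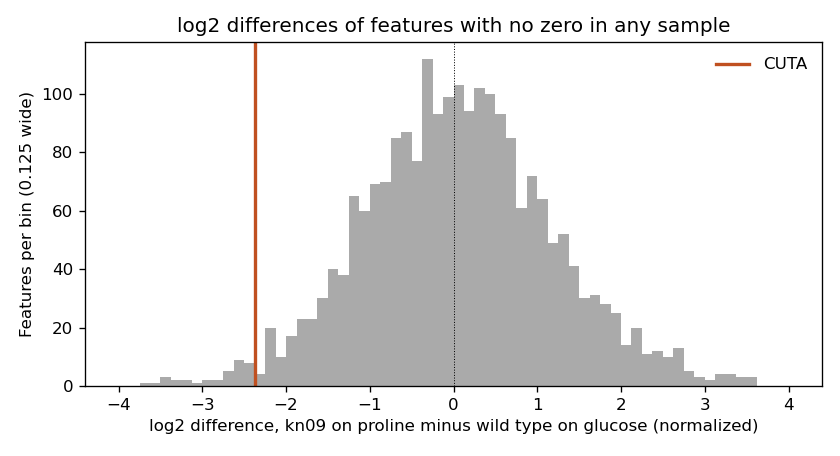
Normalized log2 differences, kn09 on proline minus wild type on glucose, for the 2196 features with no value at 0 in any sample; the vertical axis counts features per bin. The orange line marks CUTA at -2.38, in the lower tail, with 36 of these features further to the left.

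The 5 genes with the pattern most like that of CUTA were found from the root mean square difference between normalized log2 profiles over the 12 samples, each centred on its own mean. This was computed for the other 415 single-gene features with no zero. The median distance was 1.40, and the 5 nearest lay between 0.215 and 0.357, with the next at 0.431. Nearness includes the difference between the groups, so these genes all differ between the groups in the way CUTA does. It also includes the order of samples within a group, so neither likeness is a separate result. The same 5 genes were nearest without normalization and with median centring.

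The nearest, AT1G62250 at a distance of 0.215, had a mean intensity of 2.33 ± 0.242 in kn09 and 10.2 ± 3.26 in wild type (SD, n = 6 each). Its wild type samples 1 and 2, at 5.61 and 6.44, were the lowest of the group, as for CUTA, while the other 4 lay between 11.6 and 12.9. AT1G68660, at 0.227, had 0.493 ± 0.0625 in kn09 and 2.24 ± 0.526 in wild type (SD, n = 6 each). Wild type samples 3 and 4 of AT1G68660 were the highest, at 2.82 and 2.75, and samples 1 and 2 the lowest, at 1.65 and 1.62, again the order of CUTA. Within kn09 the order differed: sample 4, the highest for CUTA, was the lowest for AT1G68660 at 0.422, and sample 3 was its highest at 0.599. AT2G40980, at 0.245, had 0.905 ± 0.0902 in kn09 and 4.61 ± 0.509 in wild type (SD, n = 6 each), with wild type samples 3 and 4 the highest at 5.19 and 5.21 and sample 6 the lowest at 4.02. The gene tables used here give these 3 loci no name beyond the locus.

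The other two were genes of photosynthesis. PRK (AT1G32060), the phosphoribulokinase that regenerates the carbon dioxide acceptor in the Calvin cycle, was at a distance of 0.348, with intensities of 0.230 to 0.511 in kn09 and 1.07 to 1.88 in wild type. LHB1B2 (AT2G34420), a chlorophyll-binding protein of the photosystem II antenna, was at 0.357, with 4.28 to 6.91 in kn09 and 25.8 to 40.3 in wild type. In kn09, samples 3 and 4 had the lowest LHB1B2 values, at 4.89 and 4.28, and the highest CUTA values, so the likeness of these 2 genes did not extend to the order within kn09.

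**Figure D3:**
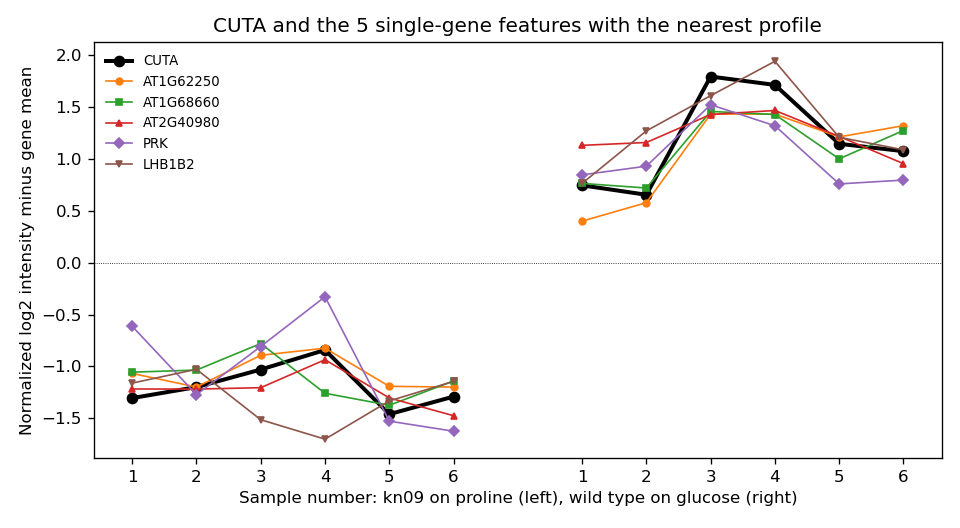
Normalized log2 intensity minus the mean of each gene over the 12 samples, for CUTA in black and the 5 single-gene features with the nearest profile; samples of kn09 on proline are on the left and of wild type on glucose on the right, and lines only join points of 1 gene. Every gene lies below 0 in all kn09 samples and above 0 in all wild type samples, and LHB1B2 dips in kn09 samples 3 and 4 where CUTA peaks.

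Copper handling was otherwise represented by 1 gene. Of 42 genes for copper transport, chaperones, copper proteins and their regulators, 1 had a single-gene feature, 0 rose and 0 fell in limma at an adjusted p of 0.05, and 0 were under an unadjusted p of 0.05. In the same test 27.7% of all features passed, 14.1% higher and 13.6% lower in kn09, and 39.2% were under an unadjusted p of 0.05. With each pair of samples averaged, 5.87% of all features passed. The gene was CCS (AT1G12520), the chaperone that loads copper into superoxide dismutase. CCS had 0.0663 to 0.168 in kn09 with a median of 0.0785, and 0.0309 to 0.199 in wild type with a median of 0.0813. The groups overlapped over most of their range, and wild type samples 1 and 2, at 0.199 and 0.158, were the highest of the wild type samples. The normalized log2 difference of CCS was 0.49 ± 0.44 (SE) in limma, adjusted p 0.443, although its mean intensity was 0.0922 ± 0.0383 in kn09 and 0.101 ± 0.0644 in wild type (SD, n = 6 each). Without normalization the log2 difference of CCS was 0.05. Without wild type samples 1 and 2 it was 1.10 with an adjusted p of 0.0439 in limma, so the count of 0 that rose became 1. In that setting 1152 of the 3439 features passed, 578 of them higher in kn09. Since the samples left out held the highest wild type CCS values, the wild type mean had to fall. Among the 42 genes, plastocyanin, the copper pumps and the superoxide dismutases had no single-gene feature, and of 27 genes for handling iron, zinc and manganese 0 had one.

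Of 19 genes that remove superoxide and peroxide, several of them in the plastid, 3 had a single-gene feature, 0 rose and 0 fell in limma, and 0 were under an unadjusted p of 0.05, against the 27.7% and 39.2% of all features given above. Their median log2 difference was -0.54. NTRC (AT2G41680), the plastid thioredoxin reductase, had 0.0469 to 0.554 in kn09 and 0.0924 to 0.368 in wild type, and limma gave it a log2 difference of 0.57 ± 0.56 (SE), adjusted p 0.486. The difference of NTRC was 0.98 without kn09 sample 1, 0.25 without wild type sample 1 and 0.09 without wild type samples 1 and 2. AT3G52960, the plastid peroxiredoxin II E, had 0.173 to 0.349 in kn09 and 0.181 to 0.886 in wild type. Its log2 difference was -0.54 ± 0.42 (SE), adjusted p 0.378 in limma. It was 0.12 without wild type samples 1 and 2, whose values of 0.886 and 0.845 were the highest. SRX (AT1G31170), the sulfiredoxin that repairs over-oxidized peroxiredoxin, was at 0 in 3 of 6 kn09 samples, with a highest kn09 value of 0.0615, and had 0.0180 to 0.156 in wild type. Its log2 difference was -1.57 ± 0.94 (SE) in limma, adjusted p 0.237. That size rests on the number put in place of the zeros: it was -0.57 with zeros as missing, adjusted p 0.679, and -0.68 with a pseudocount. Without wild type samples 1 and 2 the difference of SRX was -2.92 with an adjusted p of 0.0119 in limma, so that 1 of the 3 fell. In that setting 574 of the 3439 features fell. Wild type samples 1 and 2, at 0.0198 and 0.0180, held the lowest wild type values of SRX, so leaving them out had to raise the wild type mean. All 4 genes tested for copper and peroxide handling had values under 1 in every sample, below those of CUTA. Sample medians ran from 0.137 to 0.224, and the group means of NTRC and AT3G52960 lay above these.

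Of the measured markers of green tissue, most were lower in kn09, as CUTA was. Of 14 such genes 4 had a single-gene feature and 3 fell in limma, LHB1B2, PSAN and PRK, where 13.6% of all features were lower. The list was chosen with earlier results of these data known, and LHB1B2 and PRK are also among the nearest profiles above. The count and the p-values of these markers are therefore descriptions and no separate results. PSAN (AT5G64040), a subunit of photosystem I, had 1.48 ± 0.381 in kn09 and 7.65 ± 1.68 in wild type (SD, n = 6 each), with an adjusted p of 1.47e-05 in limma. The fourth, SBPASE (AT3G55800) of the Calvin cycle, was at 0 in 2 of 6 kn09 samples and missed the threshold in limma at -2.08 ± 0.96 (SE) on the log2 scale, adjusted p 0.129. The size for SBPASE rests in part on the number put in place of its zeros. Its mean intensity was 0.104 in kn09 and 0.230 in wild type, and its groups overlapped. The median log2 difference of the 4 markers was -2.25, which depends in part on SBPASE. Their summed intensity was 5.81 to 8.94 in kn09 and 32.5 to 51.5 in wild type, most of it from LHB1B2. Of 18 root markers 0 had a single-gene feature, so the labelled roots could not be set against their own markers. The part of green tissue in the difference of CUTA was not tested.

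Under other ways of processing the values the log2 difference of CUTA lay between -2.62 without wild type samples 1 and 2 and -2.21 with median centring. Since its groups do not overlap, leaving out samples could not turn its sign, and the fits that change only the error or the set of features return the same difference.

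**Figure D4:**
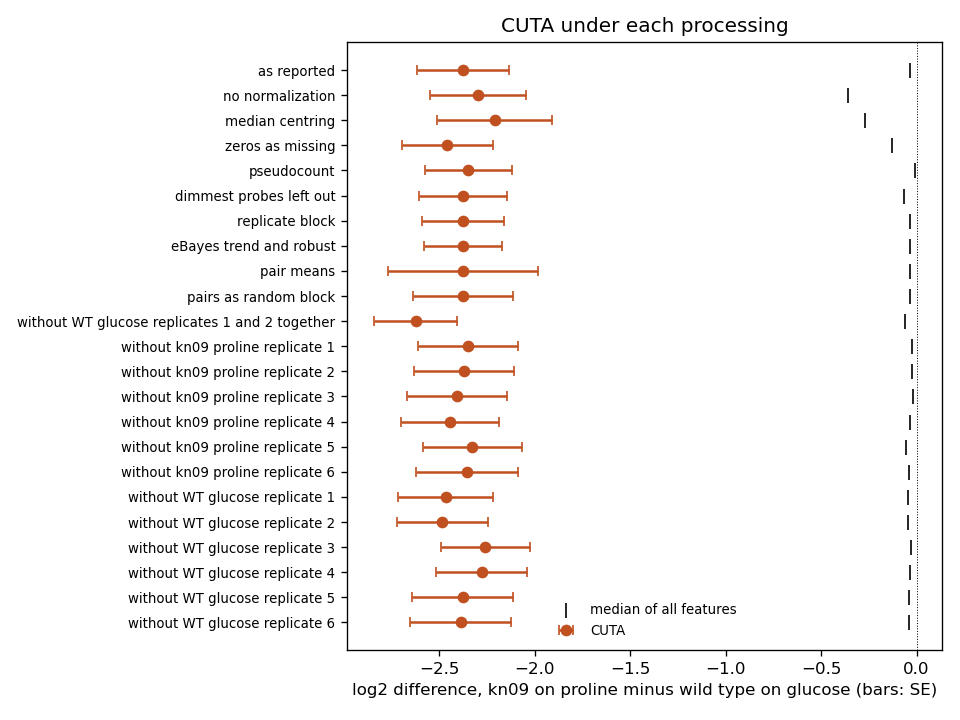
log2 difference of CUTA, kn09 on proline minus wild type on glucose, as reported and under 22 alternatives; points are estimates, whiskers are SE and black ticks are the median of all features. CUTA lies between -2.62 and -2.21, and the median of all features between -0.36 and -0.01.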

How the data were processed

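The deposited table holds 1 intensity per feature and sample, linear as far as its values show. How the authors scaled these intensities stays unknown, as do any reference, centring, background correction and filters, which no label used here gives. Groups and sample numbers came from the titles. Genes came from the platform annotation, updated by Entrez identifier to the TAIR10.1 table, in which 690 of 692 single-gene features matched a locus; 870 features with several genes and 1877 with none were not named. Coordinates are not given. Each zero took the 1st percentile of its sample's positive values, log2 was taken, and the values were quantile normalized, since sample medians ran from -2.87 to -2.16. Differences were fitted in limma 3.58.1 under R 4.3.3 over all 3439 features, two-sided, on group alone, with Benjamini-Hochberg adjustment; 951 passed 0.05, that is 27.7%. The fit was tested on simulated data with independent errors, which leave out any likeness within pairs of samples. The number of arrays limits the precision.

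The gene and the lists were chosen with earlier results of these data known. The named genes were CUTA, each listed copper, metal or antioxidant gene with a single-gene feature, features whose gene name holds a metal word (CCS alone), the 5 nearest profiles, and neighbours of CUTA; the green markers are named as members of their list. Alternatives were other scalings, missing zeros, a pseudocount of 0.05, leaving out the dimmest 25% of features, a replicate block, eBayes with trend and robust settings, pairs of samples averaged or as a random block, and left-out samples.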

Additional observations from a re-analysis of the deposited data

Results flagged for a closer look

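In 24 sets of 6 values, from the 12 genes named, 1 sample lay far from its group. Chance alone gives about 1 in 20 where the 6 values are independent, which the likeness within pairs puts in doubt. CCS stood at 0.168 in kn09 sample 1, above 0.0663 to 0.0932 in the other kn09 samples. None of the CUTA values stood apart from its group by this measure. It looks for 1 sample apart from all others, so it could not flag wild type samples 1 and 2, at 6.60 and 6.51, as a pair.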

How the results depend on the processing

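The CUTA difference moved by less than 0.37, the pooled SD of its normalized log2 values within groups, under each of 22 alternatives, of which those that change only the error or the features tested leave it as it is by construction. It was -2.62 without wild type samples 1 and 2, -2.30 without normalization, -2.21 with median centring, -2.46 with zeros as missing, -2.35 with a pseudocount, and -2.48 to -2.26 with 1 sample left out. Its SE was 0.39 on pair means. Scaling moved the median of all features to -0.36 without normalization and -0.27 with median centring. The number of features called was 789 to 1010 with 1 sample left out (422 to 498 higher, 364 to 514 lower), 202 on pair means (80 higher and 122 lower), and 620 with the pairs as a random block (343 higher and 277 lower). Without wild type samples 1 and 2 it was 1152 (578 higher and 574 lower), the most under any alternative. In that setting CCS rose (1 of 1 copper gene), SRX fell (1 of 3 antioxidant genes) and AT3G52960 had a difference of 0.12. The cause was not tested, and no other pair of samples was left out together. The count of green markers that fell was 3 in each of the 22 alternatives. SRX could not be fitted among the features left without the dimmest 25%. Same-numbered samples of the 2 groups deviated together weakly, with correlations of 0.02 to 0.09, and the main fit did not pair them. Even so, all 6 kn09 samples correlated best with their own number in wild type, and 5 of 6 in the other direction. A factor shared by sample number may thus be present, and its source was not tested. With the replicate block the CUTA difference was -2.38 ± 0.21 (SE) and 815 features were called.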
